A study of Mus musculus with 15 samples.

Results

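The C/EBP transcription factors were followed as 5 genes, Cebpa, Cebpb, Cebpd, Cebpg and Cebpz, over the 5 conditions of an adipogenesis experiment on mouse embryonic fibroblasts (MEFs). The genes were chosen by family name, with earlier results of these data known, and they were identified by their Ensembl identifiers among the 46603 genes counted. All 5 passed the filter on low counts, as did 15997 genes in all. RNA-Seq was performed on 15 samples, 3 per condition, from wild-type BALB/c MEFs, which the sample labels describe as taken from 10.5 day old embryos. MEFD0 cells were collected at day 0, before treatment. MEFD3plu cells had 3 days in DMEM with 10% FBS and IBMX (0.5 mM), which raises cAMP, insulin (10 µg/mL), the glucocorticoid dexamethasone (1 µM) and the PPARγ agonist rosiglitazone (10 µM), and MEFD3min cells had the same days in DMEM with 10% FBS alone. MEFD5plu cells were treated until day 3 and then kept in growth medium to day 5, so they were no longer exposed to these agents when collected, and MEFD5min cells were never treated. Nothing in the labels says whether the replicates, numbered 1, 3 and 4 in each condition, came from separate embryos or cultures, so the p-values measure the spread between these samples, which may be technical. MEFs are a mixed primary culture, and in bulk RNA a change in the number of cells that express a gene cannot be told apart from a change of its RNA level per cell.

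C/EBP proteins carry a basic region that contacts DNA and a leucine zipper (together the bZIP domain) through which they pair with each other. In the classical order of adipogenesis, C/EBPβ and C/EBPδ, encoded by Cebpb and Cebpd, are induced early by hormonal agents, and C/EBPα, encoded by Cebpa, follows together with PPARγ and is kept in the mature adipocyte. Cebpg encodes C/EBPγ, which lacks a transactivation domain and pairs with other bZIP proteins, whereas the product of Cebpz shares the name but has no bZIP domain and belongs to a family of nucleolar proteins.

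The total counts per sample ranged from 24030558 to 37281126, and replicates differed by more than sampling noise in all 15 pairs (chi-square divided by its degrees of freedom, 5.74 to 114). Levels are given as CPM, read counts scaled to library size with the TMM factors of edgeR (0.924 to 1.07), and genes are compared with one another only as RPKM, which is CPM per kilobase of exon. The labelled cell type was checked with its markers. The summed CPM of 6 fibroblast markers (Col1a1, Col1a2, Pdgfra, Pdgfrb, Thy1 and Vim) was 8032 to 15720 in the 9 untreated samples, 4187 to 4731 in MEFD3plu and 7023 to 7247 in MEFD5plu. The single markers did not all follow the sum. Against MEFD0, 4 of the 6 were called higher and 2 lower in MEFD3plu, where 33.9% of all genes were higher. In MEFD5plu, 2 were called higher and 2 lower against MEFD0, where 35.2% of all genes were higher. The summed CPM of 5 adipocyte markers (Adipoq, Plin1, Cidec, Fabp4 and Lipe) was 9.68 to 15.4 in untreated samples, 3811 to 4926 in MEFD3plu and 6097 to 7285 in MEFD5plu. From MEFD3plu to MEFD5plu, 3 of the 5 were called higher and 2 lower, against 33.8% and 29.2% of all genes. The mean CPM of Plin1 went from 168 to 94.2 and that of Lipe from 204 to 90.2. Macrophages also express C/EBP genes. The sum over 6 macrophage markers (Ptprc, Adgre1, Csf1r, Cd68, Fcgr1 and Mrc1) was 2.34 to 3.23 CPM in MEFD0, 7.75 to 9.75 in MEFD3min and 9.35 to 10.6 in MEFD5min, against 4.32 to 5.35 in MEFD3plu and 6.57 to 7.98 in MEFD5plu, and Adgre1 and Fcgr1 had at most 3 counts in every sample. At days 3 and 5 the mean CPM of Ptprc and of Csf1r was at most 0.315, so this sum was mostly Cd68 and Mrc1. The sum over 5 endothelial markers (Pecam1, Cdh5, Kdr, Tie1 and Emcn) was 0.901 to 18.5 CPM, with the lowest sums in MEFD0 and the highest in a MEFD5min sample. At days 3 and 5 it was mostly Emcn (mean 5.52 to 13.3 CPM), while the means of Pecam1, Kdr and Tie1 were at most 0.122.

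In GRCm38 (annotation GENCODE M21), Cebpa (ENSMUSG00000034957) lies at chr7:35119293-35121928 on the forward strand, and Cebpg (ENSMUSG00000056216) at chr7:35046422-35056573 on the reverse strand. These are neighbouring protein-coding genes, divided by 62719 bases. Cebpb (ENSMUSG00000056501) lies at chr2:167688915-167690418 and Cebpd (ENSMUSG00000071637) at chr16:15887286-15891031, both on the forward strand, and Cebpz (ENSMUSG00000024081) at chr17:78919006-78937066 on the reverse strand. Cebpa, Cebpb and Cebpd are each a single exon block, whereas Cebpg has 3 blocks and Cebpz has 16. The summed exon length was 2636 bases for Cebpa, 1504 for Cebpb, 3746 for Cebpd, 5621 for Cebpg and 4658 for Cebpz.

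Promoter sequences of RefSeq (GRCm38.p6) were matched for 3 of the 5 members, Cebpa, Cebpb and Cebpg. They are shown because these genes were all higher in treated cells while the size of the change differed between them, and each is the 250 bases before the RefSeq start of the gene, read 5′ to 3′ on the strand of the gene. The RefSeq start of Cebpg lies within the GENCODE gene, so the last bases of its sequence belong to both. Capitals mark TATAAA in Cebpa, TGACG or its reverse complement in Cebpb, and the reverse complement of CCAAT in Cebpg.
Cebpa promoter, chr7:35119043-35119292, forward strand: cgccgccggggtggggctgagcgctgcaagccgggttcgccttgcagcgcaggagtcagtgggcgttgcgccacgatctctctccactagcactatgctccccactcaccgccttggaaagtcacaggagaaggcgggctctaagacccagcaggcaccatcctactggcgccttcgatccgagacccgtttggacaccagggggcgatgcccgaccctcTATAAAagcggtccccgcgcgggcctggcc
Cebpb promoter, chr2:167688665-167688914, forward strand: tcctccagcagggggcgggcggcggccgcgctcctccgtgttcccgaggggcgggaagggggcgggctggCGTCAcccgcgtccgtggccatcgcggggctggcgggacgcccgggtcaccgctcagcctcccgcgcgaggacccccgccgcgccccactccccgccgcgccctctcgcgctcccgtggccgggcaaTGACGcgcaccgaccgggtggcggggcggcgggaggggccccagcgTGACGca
Cebpg promoter, chr7:35056567-35056816, reverse strand: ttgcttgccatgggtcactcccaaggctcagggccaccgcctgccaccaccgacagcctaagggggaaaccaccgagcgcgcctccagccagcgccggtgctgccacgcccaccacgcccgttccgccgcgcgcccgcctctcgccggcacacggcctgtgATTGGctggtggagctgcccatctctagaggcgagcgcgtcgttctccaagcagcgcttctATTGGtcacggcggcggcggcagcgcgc

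The share of G and C was 66.4% in the Cebpa sequence, 81.6% in that of Cebpb and 70.8% in that of Cebpg. Motifs were searched on both strands from 250 bases before to 50 after the start, with the first base of each match, read left to right along the strand of the gene, counted from the RefSeq start. Cebpb held TGACG, the core of a cAMP response element, 3 times, at -180 on the opposite strand and at -53 and -7, and 20.8% of all 32851 promoters held it at least once. Cebpb also held the GC box GGGCGG 5 times, at -238, -234, -202, -191 and -30, of which the pair at -238 and -234 overlaps (35.7% of promoters), and TATAAA at 22 after its start. Cebpa held TATAAA at -30 (13.6% of promoters), a motif that was added to the search after the sequences had been seen. Cebpg held CCAAT on the opposite strand at -89 and -28 (37.4% of promoters), and GGGCGG at 45 after the start. None of the 3 windows held the C/EBP palindrome TTGCGCAA (0.183% of promoters), the looser TTGCNNAA that contains it (10.8%), the full cAMP response element TGACGTCA that contains TGACG (1.79%), TTCCNGGAA (1.15%), CACGTG (7.15%) or AGAACA (19.0%). Only exact matches were counted, so near matches were missed, such as ttgcgcca in the printed Cebpa sequence, which resembles TTGCGCAA. The absence of a string is thus not the absence of a binding site.

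Cebpa had the largest change of the family. Its CPM was 1.27, 1.80 and 1.93 in MEFD0 replicates 1, 3 and 4, which rest on 37, 68 and 69 reads. In MEFD3min it was 3.48, 4.41 and 5.52, and in MEFD3plu 123, 120.0 and 135. In MEFD5min it was 2.71, 2.45 and 3.33, and in MEFD5plu 51.9, 64.4 and 57.4. Every treated sample was above every untreated one, and no samples overlapped between any pair of conditions. Cebpa was 28.3-fold higher in MEFD3plu than in MEFD3min (95% interval 22.8 to 35.1, adjusted p = 1.3e-13) and 20.3-fold higher in MEFD5plu than in MEFD5min (16.1 to 25.5, adjusted p = 1.1e-12). These and the following adjusted p-values come from the quasi-likelihood test of edgeR, adjusted by Benjamini-Hochberg over all genes tested.

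Cebpb, an early factor of the cascade, had low levels in all untreated cells. Its CPM was 7.72, 8.75 and 6.53 in MEFD0, 7.90, 9.74 and 7.97 in MEFD3min, and 7.07, 9.70 and 8.002 in MEFD5min. The ranges of these 3 conditions overlapped. It was 48.1, 55.0 and 51.0 in MEFD3plu and 17.5, 14.5 and 15.6 in MEFD5plu. The treated samples stood above all untreated ones at both days, and those of day 5 were closer to them. Cebpb was 6.01-fold higher in MEFD3plu than in MEFD3min (4.96 to 7.27, adjusted p = 4.3e-11) and 1.93-fold higher in MEFD5plu than in MEFD5min (1.59 to 2.35, adjusted p = 1.9e-05).

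Cebpd, which encodes the other early factor, had the highest level of the family in treated cells. Its CPM was 39.7, 39.0 and 44.5 in MEFD0, 71.1, 61.9 and 82.7 in MEFD3min, and 45.6, 56.6 and 48.0 in MEFD5min. It was 350, 352 and 387 in MEFD3plu and 156, 154 and 140.0 in MEFD5plu. No samples overlapped between any pair of conditions. Cebpd was 5.05-fold higher in MEFD3plu than in MEFD3min (4.33 to 5.89, adjusted p = 1.1e-11) and 3.00-fold higher in MEFD5plu than in MEFD5min (2.57 to 3.50, adjusted p = 3.5e-09).

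Cebpg, the partner without a transactivation domain, moved less. Its CPM was 83.4, 66.5 and 84.1 in MEFD0, 65.5, 54.7 and 54.7 in MEFD3min, and 67.4, 64.6 and 65.7 in MEFD5min. It was 145, 126 and 136 in MEFD3plu and 97.3, 94.4 and 96.6 in MEFD5plu. Treated samples were again above all untreated ones. The fold was 2.33 at day 3 (2.02 to 2.67, adjusted p = 9.7e-09) and 1.46 at day 5 (1.27 to 1.68, adjusted p = 0.000163).

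Cebpz, the member without a bZIP domain, had no called difference between treated and untreated cells. Its CPM was 78.9, 80.7 and 83.2 in MEFD0, 72.6, 61.9 and 79.1 in MEFD3min, and 77.7, 69.4 and 74.8 in MEFD3plu. In MEFD5min it was 80.4, 83.7 and 83.4, and in MEFD5plu 88.9, 93.1 and 92.1. The samples of day 3 overlapped, while those of day 5 did not. The fold of treated over untreated cells was 1.04 at day 3 (0.921 to 1.17, adjusted p = 0.584) and 1.11 at day 5 (0.982 to 1.25, adjusted p = 0.149), where the sign turned when libraries were scaled by total counts alone.

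**Figure D1:**
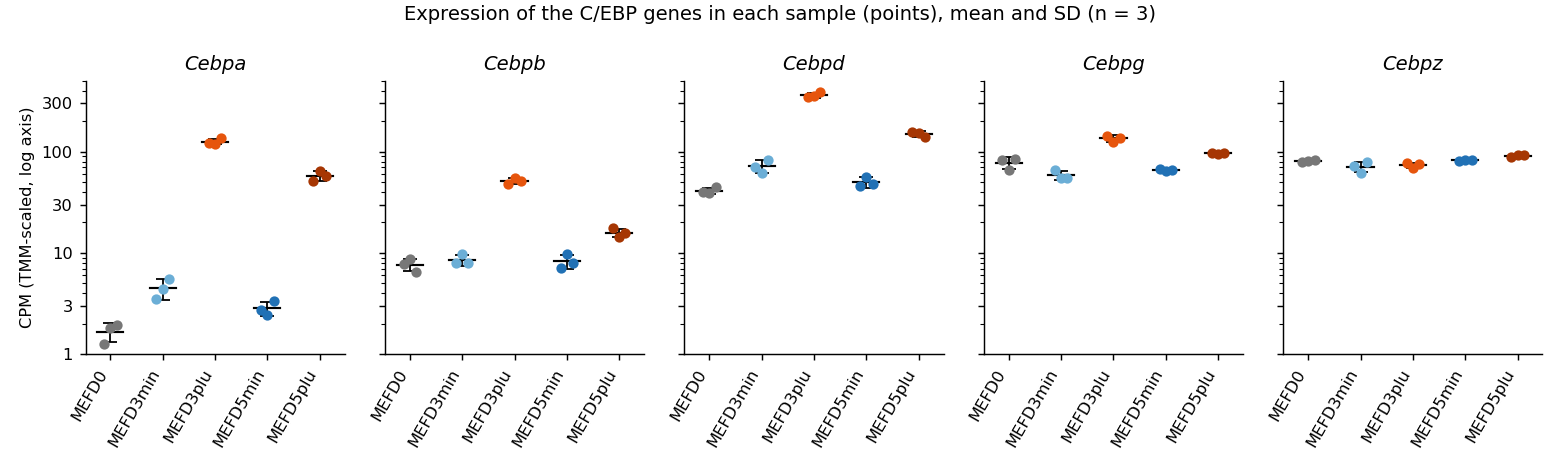
CPM (log axis, TMM-scaled) of the 5 C/EBP genes in each of the 15 samples, as points, with the mean and SD of the 3 samples per condition as bars. Cebpa, Cebpb, Cebpd and Cebpg were highest in MEFD3plu and next highest in MEFD5plu, while Cebpz stayed between 61.9 and 93.1 CPM in all samples.

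At day 3, 4 of the 5 members were higher in treated cells and none was lower, where 28.0% of the 15997 genes tested were higher and 28.0% were lower. At day 5 the same 4 members were higher and none was lower, against 26.3% and 24.2% of all genes (52.1% of the calls were higher, or 36.999% when libraries were scaled by total counts alone). The order of the changes was not the same. On the log2 scale the day 3 differences were 4.82 ± 0.15 for Cebpa, 2.59 ± 0.13 for Cebpb, 2.34 ± 0.10 for Cebpd, 1.22 ± 0.10 for Cebpg and 0.06 ± 0.08 for Cebpz (± SE, n = 3 per condition). At day 5 they were 4.34 ± 0.16 for Cebpa, 1.59 ± 0.11 for Cebpd, 0.95 ± 0.13 for Cebpb, 0.54 ± 0.10 for Cebpg and 0.15 ± 0.08 for Cebpz. Cebpd thus came before Cebpb at day 5, whereas the intervals of both genes overlapped at day 3. The difference of Cebpa was larger than that of 98.6% of all genes at day 3 and of 98.3% at day 5, and that of Cebpb was larger than that of 96.4% and 88.8%.

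**Figure D2:**
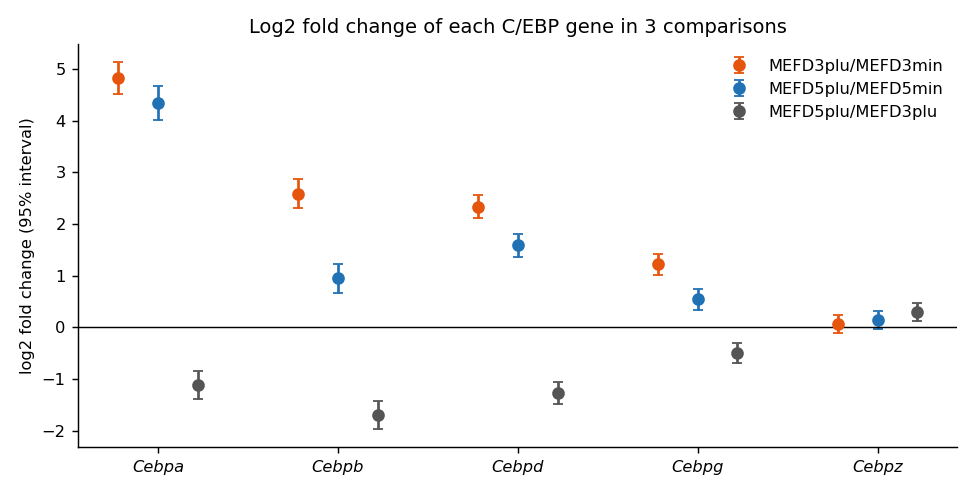
Log2 fold change of each C/EBP gene (points) with its 95% interval (bars) for treated against untreated cells at day 3 and day 5, and for MEFD5plu against MEFD3plu, from 1 model over 15 samples. The day 5 change of Cebpb (0.95) lies far below its day 3 change (2.59). The intervals of Cebpa at both days overlap, which is no test of their difference (0.48, 95% interval 0.03 to 0.94, by the interaction).

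Whether the treatment effect differed between the days was tested by the interaction, the day 3 difference minus the day 5 difference. It was called for 3 members, all with the larger effect at day 3, where 22.6% of all genes had a larger and 25.8% a smaller value at day 3. The log2 difference between the days was 1.64 for Cebpb (95% interval 1.24 to 2.03, adjusted p = 2.2e-06), 0.75 for Cebpd (0.44 to 1.07, adjusted p = 0.000524) and 0.67 for Cebpg (0.39 to 0.96, adjusted p = 0.000566). For Cebpa it was 0.48 (0.03 to 0.94), which did not pass after adjustment (adjusted p = 0.0763). It passed in 5 alternatives, among them the replicate block (0.49, adjusted p = 0.0259), and without MEFD3min replicate 4 it was 0.66 (adjusted p = 0.0128). For Cebpz it was -0.09 (-0.34 to 0.16, adjusted p = 0.553).

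After the agents had been removed, all 4 members that were raised at day 3 were lower in MEFD5plu than in MEFD3plu, where 29.2% of all genes were lower. Cebpb fell most, to 0.309 of its day 3 level (0.257 to 0.372), followed by Cebpd at 0.414 (0.355 to 0.482), Cebpa at 0.459 (0.380 to 0.554) and Cebpg at 0.709 (0.617 to 0.814). Cebpz was 1.23-fold higher at day 5 (1.09 to 1.39, adjusted p = 0.00406), where 33.8% of all genes were higher. This comparison shares the MEFD3plu and MEFD5plu samples with those within the days. In it, removal of the agents cannot be told apart from the further time in culture. Untreated cells also had less Cebpa (0.641) and Cebpd (0.696) at day 5 than at day 3. Against MEFD0, 4 members were higher in MEFD3plu and the same 4 in MEFD5plu, where 33.9% and 35.2% of all genes were higher. Cebpa was 74.7-fold higher in MEFD3plu than in MEFD0 (58.0 to 96.2) and 34.3-fold higher in MEFD5plu (26.6 to 44.2). Cebpb was still 2.07-fold above its day 0 level in MEFD5plu (1.70 to 2.52) and Cebpg 1.23-fold (1.07 to 1.42, adjusted p = 0.0105). The difference of Cebpg was not called without MEFD0 replicate 3 (log2 difference 0.20, adjusted p = 0.0797) or with libraries scaled by total counts alone (0.12, adjusted p = 0.338).

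Untreated cells changed as well. In MEFD3min, Cebpa and Cebpd were higher than in MEFD0 (31.4% of all genes were higher) and Cebpg was lower (28.6% were lower). Cebpa was 2.64-fold higher (2.01 to 3.48), Cebpd 1.75-fold higher (1.498 to 2.05), and Cebpg stood at 0.747 of its day 0 level (0.650 to 0.860). For Cebpb the fold was 1.11 (0.910 to 1.36, adjusted p = 0.343), and for Cebpz 0.879 (0.778 to 0.992, adjusted p = 0.0613), which was called with DESeq2 (log2 difference -0.20, adjusted p = 0.0426) and with total counts alone (-0.31, adjusted p = 0.00252). From MEFD3min to MEFD5min, Cebpa fell to 0.641 (0.497 to 0.825) and Cebpd to 0.696 (0.596 to 0.813), where 21.5% of all genes were lower, and Cebpz was 1.16-fold higher (1.03 to 1.31, adjusted p = 0.0466), where 21.3% were higher. Over the whole time from MEFD0 to MEFD5min, Cebpa was 1.69-fold higher (1.27 to 2.25) and Cebpd 1.22-fold higher (1.04 to 1.42, adjusted p = 0.0383), where 24.5% of all genes were higher, and Cebpg stood at 0.845 (0.735 to 0.972, adjusted p = 0.0467), where 21.9% were lower. The small differences depended on single samples and on the scaling and filter. From MEFD0 to MEFD5min, Cebpd was not called without MEFD0 replicate 1 or 3 or MEFD5min replicate 3 or 4 (log2 difference 0.19 to 0.29, adjusted p = 0.0833 to 0.184), and Cebpg was not called without MEFD0 replicate 1 or 4 or any MEFD5min sample (-0.27 to -0.18, adjusted p = 0.0763 to 0.178). From MEFD3min to MEFD5min, Cebpz was not called without MEFD3min replicate 1 or 3 or any MEFD5min sample (0.12 to 0.23, adjusted p = 0.0688 to 0.211), while Cebpg was called without MEFD3min replicate 1 (0.27, adjusted p = 0.0474). Without MEFD3min replicate 4, Cebpz was called as lower in MEFD3min than in MEFD0 (-0.27, adjusted p = 0.00857).

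The order of the 5 conditions was shared by Cebpa, Cebpb and Cebpd and was another one in Cebpg and in Cebpz. For Cebpa and for Cebpd the order of mean CPM was MEFD3plu, MEFD5plu, MEFD3min, MEFD5min and MEFD0, from 126 ± 8.07 to 1.67 ± 0.35 for Cebpa and from 363 ± 21.2 to 41.0 ± 2.98 for Cebpd (SD, n = 3), and every step was called, that of Cebpd from MEFD5min to MEFD0 with the limits just given. Cebpb had the same order, from 51.4 ± 3.50 to 7.67 ± 1.11, but MEFD3min, MEFD5min and MEFD0 did not differ beyond their spread. The order of Cebpg was MEFD3plu, MEFD5plu, MEFD0, MEFD5min and MEFD3min, from 136 ± 9.34 to 58.3 ± 6.21, with the last pair not called (adjusted p = 0.15) and the samples of MEFD0 and MEFD5min overlapping although their difference was called. For Cebpz it was MEFD5plu, MEFD5min, MEFD0, MEFD3plu and MEFD3min, from 91.4 ± 2.17 to 71.2 ± 8.69, and no step between neighbours was called. No sample was taken between day 0 and day 3, so the order of induction within these days is not covered.

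The make-up of the family was compared per length. In MEFD0 the mean RPKM was 17.4 for Cebpz, 13.9 for Cebpg, 10.96 for Cebpd, 5.10 for Cebpb and 0.632 for Cebpa. In MEFD3plu it was 96.9 for Cebpd, 47.8 for Cebpa, 34.2 for Cebpb, 24.1 for Cebpg and 15.9 for Cebpz, which was then the lowest. Among the 4 bZIP members, Cebpg held the largest share of the summed RPKM in MEFD0 (45.3% ± 3.61, SD, n = 3) and Cebpd in all other conditions (51.8% ± 4.21 in MEFD3min and 42.1% ± 2.02 in MEFD5min, 47.7% ± 0.75 in MEFD3plu and 44.7% ± 1.54 in MEFD5plu).

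The share of Cebpa was 1.55% to 2.38% in MEFD0, 3.55% to 5.34% in MEFD3min and 2.74% to 4.06% in MEFD5min, against 22.9% to 24.1% in MEFD3plu and 21.8% to 26.6% in MEFD5plu. That of Cebpg was 24.8% to 31.3% in MEFD3min and 33.8% to 40.1% in MEFD5min, against 11.3% to 13.0% in MEFD3plu and 18.3% to 19.8% in MEFD5plu. Treated and untreated samples did not overlap in either share, so that a rise of Cebpg in CPM went with a smaller share of the family. Cebpb held 15.5% ± 2.91 in MEFD3min and 16.8% ± 1.38 in MEFD3plu (exact permutation test, two-sided, p = 0.6), and 17.3% ± 1.63 in MEFD5min and 11.8% ± 1.23 in MEFD5plu (p = 0.1). With 3 samples against 3 this test cannot go below 0.1, which it gave for the shares of Cebpa and Cebpg at both days.

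**Figure D3:**
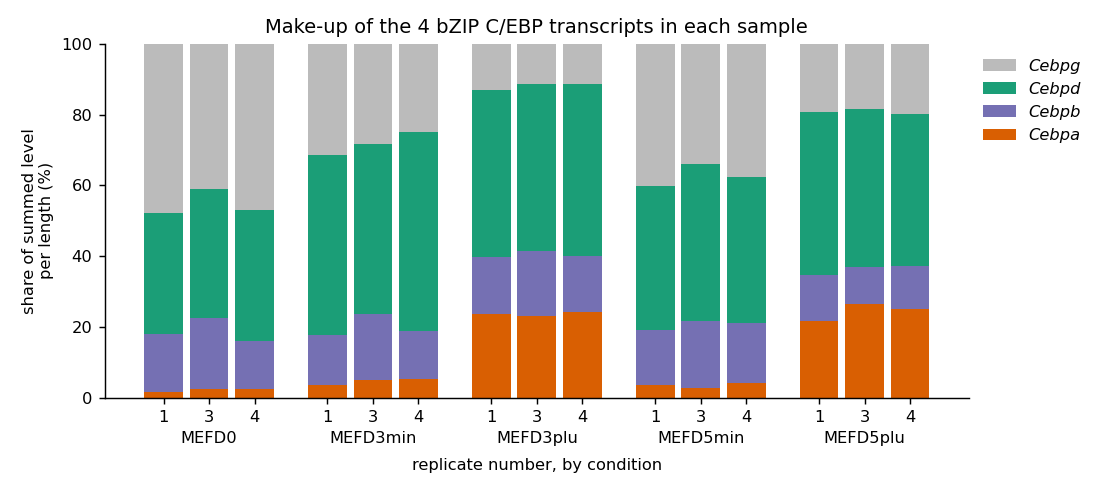
Share (%) of each of the 4 bZIP C/EBP genes in their summed RPKM, as stacked bars for each replicate of the 5 conditions. The Cebpa part grows from at most 5.34% in untreated samples to at least 21.8% in treated ones, and the Cebpg part is smallest in MEFD3plu (11.3% to 13.0%).

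The log2 ratio of Cebpa to Cebpb per length was -3.40, -3.08 and -2.56 in MEFD0, -1.99, -1.95 and -1.34 in MEFD3min, and -2.19, -2.78 and -2.07 in MEFD5min. It was 0.55, 0.32 and 0.60 in MEFD3plu and 0.75, 1.34 and 1.07 in MEFD5plu. Cebpb was above Cebpa in each untreated sample and below it in each treated one. With the bases that Cebpb shares with another gene left out of its length, the ratio in MEFD3plu replicate 3 was -0.020, so that this sample no longer had more Cebpa than Cebpb. The mean difference between treated and untreated cells was 2.25 at day 3 and 3.40 at day 5, and that between MEFD5plu and MEFD3plu was 0.57 (p = 0.1 each, exact permutation test, two-sided, the smallest it allows). The ratio of Cebpb to Cebpd, a measure chosen after the values had been seen, differed by 0.25 between MEFD3plu and MEFD3min (exact permutation test, p = 0.4) and by -0.64 between MEFD5plu and MEFD5min (p = 0.1), with no overlap at day 5. Cebpb was thus lower relative to Cebpd in every MEFD5plu sample than in any MEFD5min sample.

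Exons of 3 members overlap exons of other counted genes on the opposite strand. Cebpb shares 312 of its bases (20.7%) with Tmem189, Cebpd 562 (15.003%) with Spidr and Cebpz 171 (3.67%) with Cebpzos. The sources name both a stranded and an unstranded library kit, and the strand setting of the counting is not given in the sources used here. It is thus not known to which gene, if to any, reads of these stretches were counted. Spidr, which encodes a scaffold protein of DNA repair, was higher in treated cells at both days, as Cebpd was. Its CPM was 27.5, 24.8 and 31.9 in MEFD3min and 115, 109 and 125 in MEFD3plu, a log2 difference of 2.05 ± 0.10 (SE, adjusted p = 4.0e-11), beside 2.34 for Cebpd. At day 5 it was 56.0 to 75.0 in MEFD5min and 82.2 to 87.2 in MEFD5plu, a log2 difference of 0.39, beside 1.59 for Cebpd. In untreated cells the genes moved in opposite directions. Spidr was 44.1 to 44.5 CPM in MEFD0, above its MEFD3min samples, while Cebpd was 39.0 to 44.5 CPM, below its own. From MEFD3min to MEFD5min, Spidr was higher and Cebpd lower. Cebpd was 61.9 to 82.7 CPM in MEFD3min against 24.8 to 31.9 for Spidr, and 350 to 387 against 109 to 125 in MEFD3plu, so in each day 3 sample Cebpd had more reads than Spidr. Cebpd also had more in each MEFD5plu sample (140.0 to 156 CPM against 82.2 to 87.2). In each MEFD5min sample Spidr had more (56.0 to 75.0 CPM against 45.6 to 56.6), as it had in MEFD0 replicates 1 and 3. Tmem189 was 20.7 to 24.5 CPM in MEFD3min and 27.4 to 29.9 in MEFD3plu (log2 difference 0.32, adjusted p = 0.0219), beside 2.59 for Cebpb, and lower in MEFD5plu than in MEFD5min (-0.29, adjusted p = 0.0421), where Cebpb was higher. Cebpzos was not called at either day (0.07 and 0.25). The part of shared reads in the values of Cebpd and Cebpb was not tested. With the shared bases left out of the length, which scales RPKM and not the counts, the mean share of Cebpa in MEFD3plu was 20.9% instead of 23.6%.

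**Figure D4:**
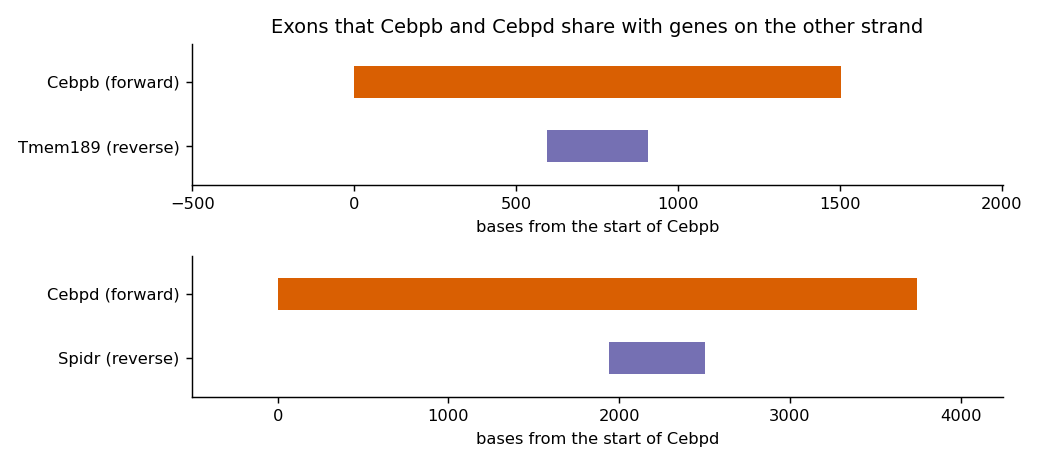
Exon blocks of Cebpb and Cebpd (orange, forward strand) and of the genes on the reverse strand that share bases with them (purple), by distance in bases from the start of Cebpb or Cebpd. The Tmem189 block covers 312 of the 1504 bases of Cebpb, and the Spidr block 562 of the 3746 bases of Cebpd.

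The other genes of the pathway were described by a list of 19 C/EBP partners and regulators, which comprises bZIP partners, factors known to switch on C/EBP genes, and enzymes that modify or degrade C/EBP proteins. At day 3, 10 of the 18 tested were higher, 4 were lower and 4 were not called, against 28.0% higher and 28.0% lower among all genes, with a median log2 difference of 0.33 (-0.00057 over all genes). At day 5, 6 were higher, 6 lower and 6 not called, near the 26.3% and 24.2% of all genes, with a median of -0.07 (0.01 over all genes). The signed log2 difference was higher at day 3 than at day 5 for 9 of them and lower for 4, against 22.6% and 25.8% of all genes, where the sign does not rank the sizes (Mapk3, for example, is among the 4 and moved further from 0 at day 3). Klf5, which encodes a factor that acts downstream of C/EBPβ and C/EBPδ, had the largest rise at day 3, from 0.956 ± 0.26 to 6.22 ± 0.97 CPM (log2 difference 2.69), and the largest fall at day 5, from 6.64 ± 2.38 to 1.72 ± 0.19 (-1.94). Trib1, a pseudokinase adaptor that directs C/EBPα to degradation, rose from 9.77 ± 1.02 to 23.8 ± 1.29 CPM at day 3 (1.28), and at day 5 it was 18.1 ± 2.66 in untreated and 7.52 ± 0.58 in treated cells (-1.26). Fbxw7, a ubiquitin ligase subunit, rose at day 3 (0.88) and was lower at day 5 (-0.27, adjusted p = 0.0419).

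The lowest called values at day 3 were those of Nr3c1, the glucocorticoid receptor bound by dexamethasone (-0.90), Mapk3, an ERK kinase (-0.81), and Atf5, a bZIP factor (-0.31). At day 5, Nr3c1 was higher (0.29), as was Atf5 (1.11), whereas Mapk3 was not called (-0.15). Trib3 rose at both days (0.74 and 0.67). Trib2 rose at day 3 (0.26) and was not called at day 5 (-0.04), and the difference between the days was not called either (adjusted p = 0.0856). Ddit3, whose product CHOP pairs with C/EBP proteins and blocks their binding to classical sites, was 63.6 ± 3.97 CPM in MEFD3min and 71.1 ± 16.9 in MEFD3plu (0.16, adjusted p = 0.458), and it rose at day 5 from 107 ± 30.7 to 146 ± 7.90 (0.45, adjusted p = 0.0397). Cebpe, the family gene of granulocytes, had 0 to 4 counts in every sample and was not tested.

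**Figure D5:**
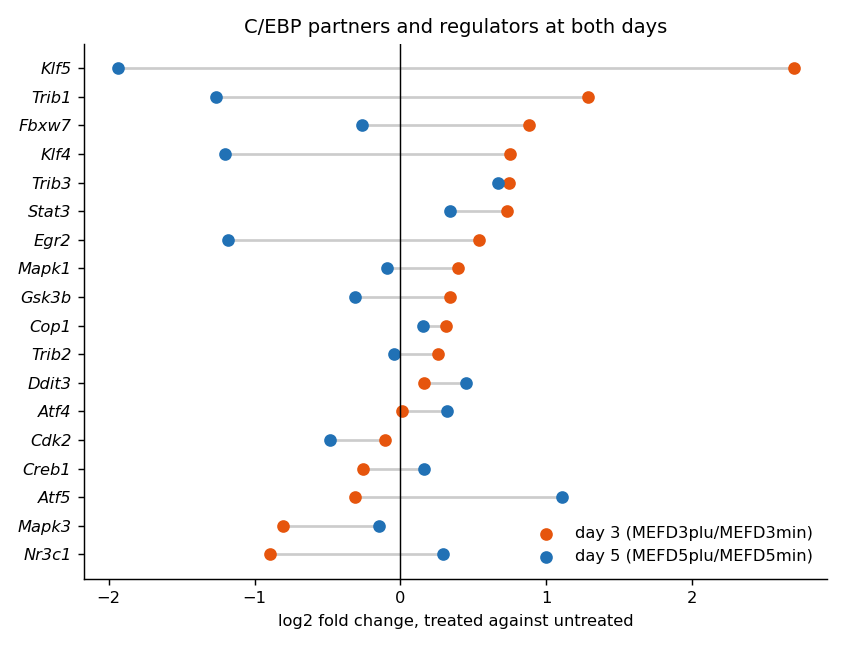
Log2 fold change of treated against untreated cells at day 3 (orange) and day 5 (blue) for the 18 tested C/EBP partners and regulators, joined by a line for each gene and ordered by the day 3 value. Klf5 and Trib1 lie on opposite sides of 0 at the 2 days, and Trib3 has like values at both.

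Of 13 adipocyte genes known as C/EBP targets, 12 were tested, and all 12 were higher at day 3 and 11 at day 5, against 28.0% and 26.3% of all genes. Their median log2 difference was 6.33 at day 3 and 7.40 at day 5, with genes at or under 3 counts in all untreated samples of the day set at their lower bound. The largest fitted values of day 3, which rest on at most 27 reads per MEFD3min sample, were those of G0s2, an inhibitor of lipolysis (11.10), Retn, which encodes resistin (10.37), and Adipoq, which encodes adiponectin (10.11), and the smallest were those of Insr, the insulin receptor (0.66), Scd1, a fatty acid desaturase (2.30), and Pparg (2.62). Pparg, which cooperates with Cebpa, was 12.4 ± 0.65 CPM in MEFD3min and 76.6 ± 9.54 in MEFD3plu, and 10.0 ± 0.77 in MEFD5min and 89.5 ± 6.21 in MEFD5plu. Its log2 difference was thus 2.62 at day 3 and 3.16 at day 5, and the change between the days was called (-0.54, adjusted p = 0.005). Insr was not called at day 5 (-0.30, adjusted p = 0.0931). Lep, which encodes leptin, had at most 1 count in any sample. This list, like the other gene lists, was chosen with earlier results of these data known, so its counts are not independent of those results.

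Of 10 acute phase and inflammatory genes known as C/EBPβ or C/EBPδ targets, 8 were tested. At day 3, 5 were higher, 2 lower and 1 (Il6) was not called, and at day 5, 6 were higher, none was lower and 2 were not called. Among all genes, 28.0% were higher and 28.0% lower at day 3, and 26.3% and 24.2% at day 5. The median log2 difference with bounds was 5.87 at day 3 and 5.50 at day 5. Lcn2, which encodes lipocalin 2, was 0.0468 ± 0.081 CPM in MEFD3min and 638 ± 71.4 in MEFD3plu, and Saa3, a serum amyloid gene, 0.135 ± 0.074 and 154 ± 25.1. Orm1, which encodes an acute phase glycoprotein, had no counts in any untreated sample and was at least 43.6-fold higher in MEFD3plu, from a floor of 3 counts per library. At day 5, Lcn2 was 311 ± 16.1 CPM and Saa3 21.9 ± 2.45 in treated cells. The lowest called values at day 3 were those of Ccl2, a chemokine (-1.90), and Tnfaip6, a hyaluronan-binding protein (-0.48). Ccl2 was higher in treated cells at day 5 (1.28). In treated cells the sum of the 5 adipocyte markers given above was higher, as were the 4 bZIP members, and that of the 6 fibroblast markers was lower. Of these 6 markers, 1 was called higher and 5 lower at day 3. At day 5, 1 was higher, 2 were lower and 3 were not called, beside the shares of all genes just given. The part of either marker set in the C/EBP values was not tested.

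Over the 15 samples, which share conditions and fall into treated and untreated clusters, the log2 CPM of Cebpa and Cebpd had a Pearson's r of 0.969, that of Cebpb and Cebpd 0.954 and that of Cebpa and Cebpb 0.901, given as a description. Cebpg had 0.823 to 0.876 with these 3 genes, and Cebpz -0.17 to 0.13 with the other members. Among 9586 genes whose log2 CPM averaged 3 or more, the pattern most like that of Cebpa was that of Lipe, hormone-sensitive lipase (r = 0.992), then D10Jhu81e (0.992) and Ppp2r5a (0.992). For Cebpb it was that of Aplp2 (0.994), Pex14 (0.990), a peroxisomal import protein, and Lifr (0.986), a cytokine receptor. For Cebpd it was that of Coq9 (0.994), of ubiquinone synthesis, Hacd2 (0.988) and Tgfbr1 (0.988), a TGF-β receptor. For Cebpg it was that of Phf10 (0.982), Rpia (0.963) and Ppp2r1b (0.962), and for Cebpz that of Isy1 (0.950), Psmd12 (0.949), a proteasome subunit, and Twistnb (0.944). With Spearman's rho none of the 3 genes was the same for Cebpa, Cebpb and Cebpd, and 1 of 3 was for Cebpg and for Cebpz.

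Among the annotated neighbours, Cebpg and Cebpa, which are adjacent, had r = 0.823. Pepd, 1713 bases from Cebpg on its other side, had r = -0.47 with it. Ndufaf7, which lies 69 bases from Cebpz on the side of higher coordinates, had r = 0.385 with it, and Cebpzos 0.760.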

How the data were processed

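RNA-Seq was analysed for 15 MEF samples in 5 conditions. Per the labels, the authors used TopHat2 2.1.0 and HTSeq on GRCm38 and deposited raw counts of reads per Ensembl gene for each sample. The annotation release and strand setting are not given in the sources used here, and the sources differ on the library kit. Identifiers were matched to GENCODE M21, which named 46091 of 46603.

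In R 4.3.3, edgeR 4.0.16 kept 15997 genes (filterByExpr), scaled by TMM, and tested all comparisons in 1 quasi-likelihood fit over all 15 samples (glmQLFit, glmQLFTest), with Benjamini-Hochberg adjustment over all genes and calls at an adjusted p under 0.05. The steps were tested on simulated data. Log ratios per length used a pseudocount of 0.5 counts. For likeness, 2 prior counts were added before log2 CPM was taken. Counts of at most 3 in every sample of a condition were taken as the floor, which covers counting error only. Samples were grouped by the labels. Deviations of same-numbered samples correlated at 0.143 to 0.360 between MEFD3min and MEFD3plu and at -0.0045 to 0.0538 between MEFD5min and MEFD5plu, over all genes, so the numbers pair the day 3 samples by this check alone. Neither the labels nor the methods say what the numbers share.

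The members and gene lists were chosen with earlier results of these data known. Named were the 5 members, the 3 highest and 3 lowest called genes per list at day 3, Ddit3, Cebpe and the Trib genes, the 3 genes most like each member, and neighbouring or overlapping genes. Alternatives were DESeq2 1.42.0, other scalings and filters, only the samples compared, a replicate block, a stricter threshold, and each sample left out. The length without shared exon bases was an alternative chosen after seeing the data. Protein sequences were not used here.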

Additional observations from a re-analysis of the deposited data

Results flagged for a closer look

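For 3 of the 5 C/EBP genes the treatment effect differed between the days by a test of the difference itself, the treatment by day interaction in the quasi-likelihood fit of edgeR over 15997 genes. Of all these genes, 22.6% were called with a larger and 25.8% with a smaller value at day 3, so such a call was common. The log2 effect at day 3 exceeded that at day 5 by 1.64 for Cebpb, by 0.75 for Cebpd and by 0.67 for Cebpg. Over all alternatives and left-out samples these values stayed called, at 1.51 to 1.82, 0.65 to 0.94 and 0.63 to 0.85.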

How the results depend on the processing

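The treatment effects of Cebpa, Cebpb, Cebpd and Cebpg kept their direction and their call at both days in all 14 alternatives run for each, left-out samples included. At day 3 the log2 differences stayed at 4.67 to 4.99, 2.53 to 2.69, 2.24 to 2.45 and 1.17 to 1.31. The Cebpa interaction (0.48) passed with DESeq2 (0.51, adjusted p = 0.0418), with total counts alone (0.66), with no filter (0.46), with the replicate block (0.49, adjusted p = 0.0259) and in 1 of 12 fits with a sample left out (range 0.33 to 0.66). Scaling by total counts alone moved the median of all genes by -0.16 at day 5, 0.18 in the interaction, -0.12 in MEFD3min/MEFD0 and -0.18 in MEFD5plu/MEFD0, and it moved the share of higher calls at day 5 from 52.1% to 36.999%, in the interaction from 46.7% to 59.5%, in MEFD5min/MEFD3min from 49.7% to 62.7% and in MEFD5plu/MEFD0 from 54.2% to 43.7%. Under it uncalled values turned sign, Cebpz to -0.016 at day 5, 0.096 in the interaction and -0.0095 in MEFD5plu/MEFD0, and Cebpb to 0.045 in MEFD5min/MEFD3min. It also lost the call of Cebpg in MEFD5plu/MEFD0 (0.12, adjusted p = 0.338), which an adjusted p under 0.01 lost too, and gained those of Cebpz in MEFD3min/MEFD0 (-0.31), MEFD3plu/MEFD0 (-0.23, adjusted p = 0.0164) and MEFD3plu/MEFD5min (-0.24) and of Cebpg in MEFD5min/MEFD3min (0.28, adjusted p = 0.0429). Cebpd in MEFD5min/MEFD0 was lost with DESeq2 size factors (adjusted p = 0.0563) and no filter (0.0533), Cebpg there with a minimum of 10 counts (0.0728) and only the samples compared (0.0666), and Cebpz in MEFD5min/MEFD3min with DESeq2 size factors (0.0582), no filter (0.273) and only the samples compared (0.162), and all 3 at an adjusted p under 0.01. Cebpa in MEFD5min/MEFD3min was lost with only the samples compared (0.0516). Cebpz was called in MEFD5plu/MEFD0 with a minimum of 10 counts (0.21, adjusted p = 0.0282) and in MEFD3min/MEFD0 with DESeq2 (adjusted p = 0.0426). Without a filter Cebpz was -0.00024 in MEFD5min/MEFD0. With a sample left out, uncalled values ranged across 0 for Cebpz at day 3 (-0.035 to 0.14) and in MEFD5min/MEFD0 (-0.0080 to 0.047), and for Cebpb in MEFD5min/MEFD0 (-0.025 to 0.21) and MEFD5min/MEFD3min (-0.18 to 0.049). In MEFD5min/MEFD0, 1 member instead of 3 was called at an adjusted p under 0.01 and 1 to 2 with a sample left out. In MEFD5min/MEFD3min, 1 instead of 3 was called with only the samples compared. The causes were not tested. Beside the Cebpa interaction, the replicate block changed the call of Cebpz in MEFD3min/MEFD0 (-0.19, adjusted p = 0.0438) and no other, and it moved the genes called from 8967 to 9452 at day 3 and from 8080 to 8607 at day 5. Cebpa in MEFD0 rests on 37 to 69 reads per sample, which limits the precision of its fold against day 0.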
